A study of Mus musculus with 12 samples.

Results

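The genes described here are 49 genes of the type I and type II interferon pathway, without the guanylate-binding proteins and the genes of the major histocompatibility complex. They were chosen by symbol from a list of receptors, kinases, transcription factors, nucleic acid sensors and interferon-stimulated genes, and all 49 were found among the 55471 gene columns of the count table. The choice was made with earlier results of these data known. The study asked what the loss of *Neuid* (Gm10419), a long non-coding RNA of neurons, does to gene expression in cultured hippocampal neurons. Cultures of hippocampal cells from CD1 mouse embryos of mixed-sex litters, labelled WT in genotype, were given either a gapmer against *Neuid* (*Neuid* KD) or a negative control gapmer at day in vitro (DIV) 7, and RNA was taken at DIV 10. A gapmer is a short antisense oligonucleotide with locked nucleic acid ends that directs RNase H to its target RNA, and in both groups it was delivered in lipid nanoparticles, so both groups received an oligonucleotide and nanoparticles and no untreated culture is part of the comparison. Each group has 6 libraries of total RNA. The labels do not say whether the libraries of a group came from separate cultures, so the p-values measure the spread between these libraries, which may be technical.

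Type I interferons bind the receptor formed by IFNAR1 and IFNAR2, and interferon gamma binds IFNGR1 and IFNGR2. Janus kinases at these receptors phosphorylate STAT proteins, and a complex that holds STAT2 and IRF9 binds the interferon-stimulated response element (ISRE) in the promoters of interferon-stimulated genes, many of which encode proteins that sense or block viruses. In the brain, neurons keep a low tonic level of this program, while microglia and astrocytes can raise it strongly.

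Between 18002585 and 30914714 reads were counted on genes in the control libraries and between 11152556 and 30573480 in the *Neuid* KD libraries, with the fewest in *Neuid* KD replicate 1. *Neuid* averaged 28.4 ± 2.03 CPM among controls and 8.05 ± 1.13 CPM after the knockdown (SD, n = 6 each), where CPM is counts scaled to library size after TMM normalization in edgeR, and its highest *Neuid* KD library (9.55 CPM) lay below its lowest control library (26.0 CPM). The 13 neuronal markers were well expressed in both groups, with sums from 7168 to 8455 CPM among controls and from 7285 to 8648 CPM after the knockdown. Libraries differed in background, taken as the summed reads on 2014 chemosensory receptor genes. These genes were assumed not to be expressed in hippocampal cultures, which was not tested. At least 100 CPM on these genes were counted in 4 control (1, 2, 4 and 6) and 3 *Neuid* KD libraries (1, 5 and 6). The other 2 control (3 and 5) and 3 *Neuid* KD libraries (2, 3 and 4) had less. The background lay between 26.7 and 667 CPM among controls and between 27.1 and 617 CPM after the knockdown, and results for weakly expressed genes are given below with and without the high-background libraries.

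In *Neuid* KD, 4 interferon-stimulated genes fell and 1 rose. Ddx58, which encodes the viral RNA sensor RIG-I, fell to 44.2% of its control level. Parp9 and Dtx3l, which encode partner proteins that act in the interferon response and lie head to head on chromosome 16, fell to 39.4% and 45.4%. Ifit1, which encodes a protein that binds viral RNA lacking host cap methylation, was at 13.1% of its control level, a value from few reads. Eif2ak2, which encodes the double-stranded RNA kinase PKR, rose to 150.1%. Of the 49 members, 43 had enough reads to be tested by edgeR's quasi-likelihood test. The calls need a Benjamini-Hochberg adjusted p under 0.05 over all 19578 tested genes and an absolute log2 fold change above 0.5. By this rule 4 of the 43 members were lower, where 0.792% of all tested genes were, and 1 was higher, where 2.44% of all tested genes were. Without the threshold on the fold change, 5 members were lower and 1 higher, the added member being Stat2, against 2.42% and 6.31% of all tested genes. DESeq2 and limma-voom each called 6 members lower, against 1.3% and 0.914% of all tested genes, and 1 higher, against 2.45% and 2.52%. In 5 members (Ddx58, Stat2, Parp9, Ifit1 and Isg15) every *Neuid* KD library lay below every control library, as in 1.57% of all tested genes, and in 1 (Eif2ak2) every *Neuid* KD library lay above, as in 4.13%.

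**Figure D1:**
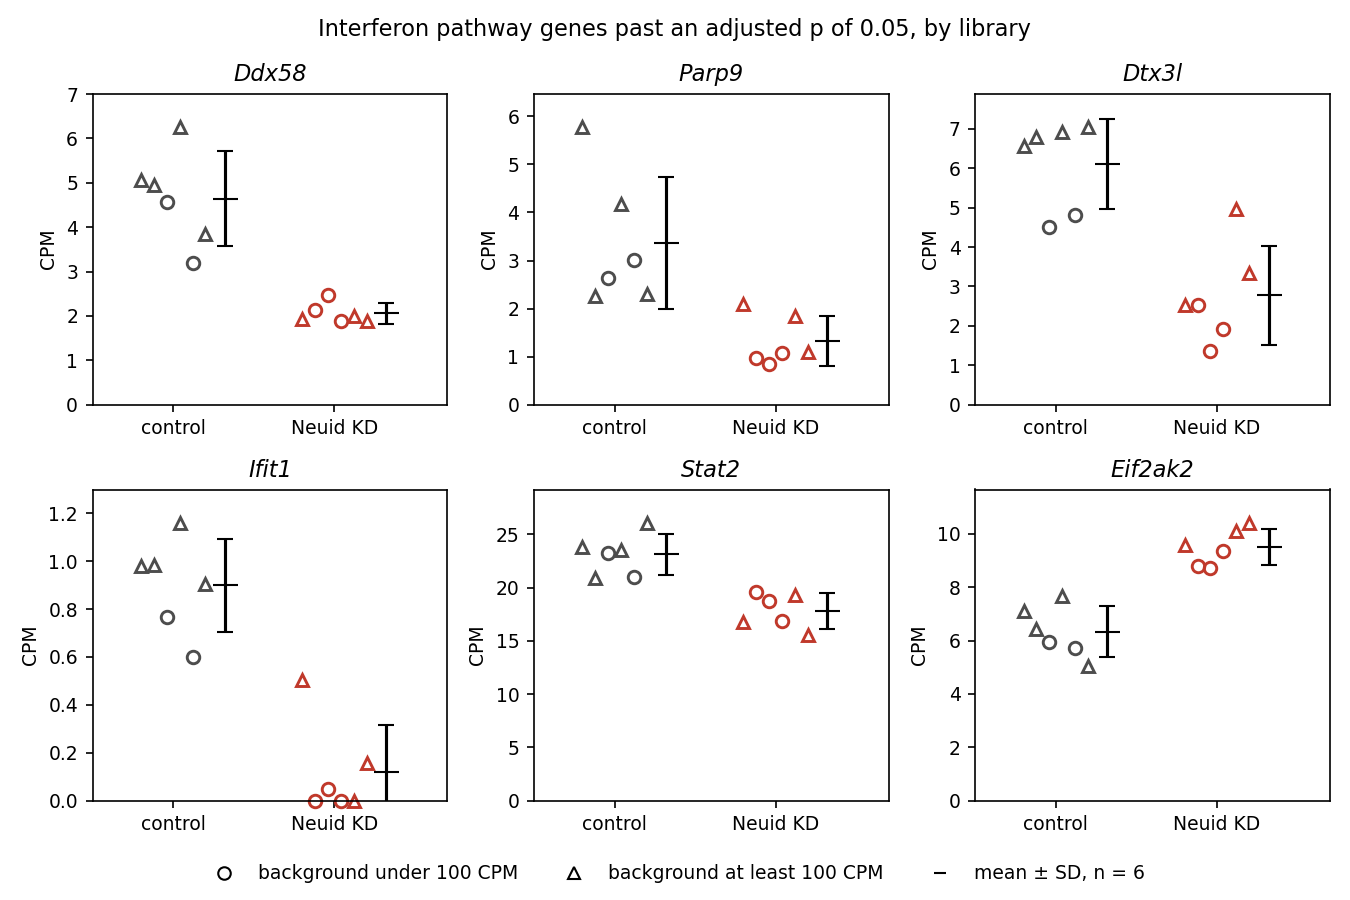
Expression in CPM of the 6 members with an adjusted p under 0.05, in each of the 6 control (grey) and 6 *Neuid* KD (red) libraries, with circles for libraries under 100 CPM of background and triangles for the others, and the mean ± SD beside each group (the lower end of the *Neuid* KD bar of Ifit1 lies below 0 and is not drawn). The groups do not overlap in Ddx58, Parp9, Ifit1, Stat2 and Eif2ak2, and they overlap in Dtx3l.

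The median log2 fold change of the 43 tested members was -0.61, beside -0.03 over all tested genes, and 34 members had a negative and 9 a positive value, where 55.6% of all tested genes were negative. Weakly expressed genes leaned negative in general. Among all tested genes with a control mean under 2 CPM 74.9% were negative (median -0.27), as were all 18 members of that level. At 2 CPM or more 45.9% of all tested genes were negative (median 0.01), as were 16 of 25 members. The 8 members above 10 CPM in control held the receptors Ifnar1 and Ifngr2, the kinases Jak1 and Jak2, and Stat2, Irf2, Adar and Samhd1, and none of these 8 was called in either direction. Per kilobase of exon, the highest control levels were those of Ifngr2 (29.1 CPM per kb), Jak1 (28.5) and Adar (13.8), against 0.659 for Ddx58, 0.690 for Parp9, 1.07 for Dtx3l and 1.24 for Eif2ak2. The genes that passed the call rule were thus not among the strongly expressed members.

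**Figure D2:**
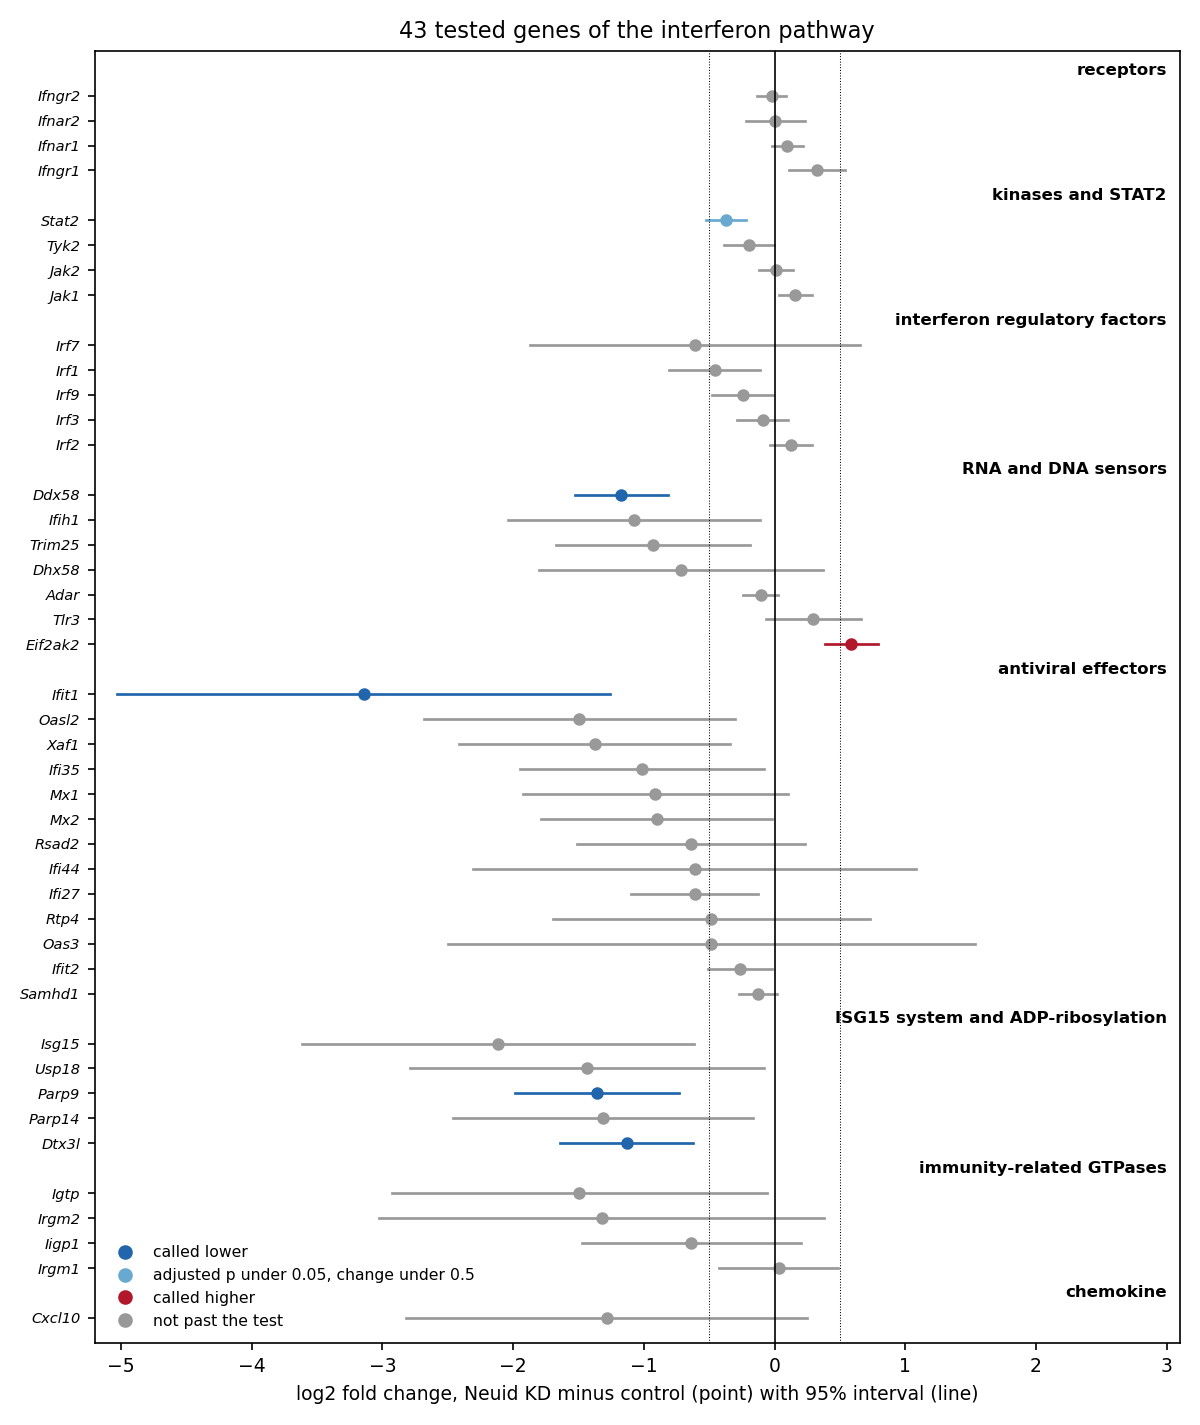
Log2 fold change of *Neuid* KD against control (points) with its 95% interval (lines) for the 43 tested members, grouped by role, with dotted lines at the threshold of 0.5 in each direction. The 13 tested antiviral effectors and the 5 genes of the ISG15 and ADP-ribosylation group all lie left of 0, and intervals are wide for the weakly expressed genes.

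None of the 4 receptor subunits was called by edgeR, DESeq2 or limma-voom, and 1 of them (Ifngr1) had an unadjusted p under 0.05. The share of all tested genes at that unadjusted level was not computed. Counts at it, here and below, therefore only describe the listed genes and cannot be weighed against all genes. The log2 fold change of Ifnar1 was 0.10 (95% interval -0.02 to 0.22), and that of Ifnar2 was 0.01 (-0.22 to 0.23). Ifngr2, the most strongly expressed subunit, stood at 109.5 ± 8.08 CPM among controls and 107.8 ± 2.95 CPM after the knockdown (SD, n = 6 each), or -0.02 on the log2 scale (-0.13 to 0.09). For these 3 subunits the intervals lay within the threshold of 0.5 in each direction. Ifngr1 had between 4.88 and 6.15 CPM in control (median 5.54) and between 5.91 and 8.50 CPM in *Neuid* KD (median 6.90), with overlap between the groups, and its log2 fold change of 0.32 had an adjusted p of 0.0558. With the adjusted p alone Ifngr1 passed with DESeq2 (0.0389), 1 RUVs factor (0.0453) and the background as covariate (0.0464), always under the threshold on the fold change.

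Among the kinases and STAT2, the signal transducers downstream of the receptors, Stat2 was the member with an adjusted p under 0.05 by edgeR. Stat2 (ENSMUSG00000040033, chr10:128270559-128292849, plus strand) had between 20.9 and 26.1 CPM in control (median 23.4) and between 15.5 and 19.6 CPM in *Neuid* KD (median 17.8). Every *Neuid* KD library lay below every control library. Stat2 fell by 0.37 on the log2 scale (SE 0.0707, adjusted p = 0.00196 by edgeR's test), less than the threshold for a call. Its value was -0.44 within the high-background libraries (adjusted p = 0.00727) and -0.30 within the low-background libraries (adjusted p = 0.0498). The kinases had a log2 fold change of 0.16 (0.04 to 0.29) for Jak1, 0.01 (-0.12 to 0.14) for Jak2 and -0.20 (-0.39 to -0.00) for Tyk2, none past the adjusted threshold in this fit. For Jak1 the adjusted p was 0.121, and it was 0.0144 with the background as covariate, 0.0168 with 1 RUVs factor and 0.0492 with genes of a mean of at least 1 CPM. Jak1 was the most abundant member in reads, averaging 206 ± 15.2 CPM among controls and 231 ± 15.7 CPM after the knockdown (SD, n = 6 each).

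Of the 5 interferon regulatory factors, transcription factors that drive interferon genes or their targets, none was called by edgeR, DESeq2 or limma-voom, and 2 (Irf1 and Irf9) had an unadjusted p under 0.05. Irf9, which encodes a DNA-binding partner of STAT2, averaged 8.14 ± 1.22 CPM among controls and 6.83 ± 0.817 CPM after the knockdown (log2 fold change -0.25, adjusted p = 0.240). Irf1, an early target of interferon gamma, had 4.35 ± 0.908 and 3.19 ± 0.541 CPM (-0.46, adjusted p = 0.110). Irf1 was called lower when control replicate 5 or *Neuid* KD replicate 1 was left out. Log2 fold changes were 0.13 for Irf2, -0.09 for Irf3 and -0.61 for Irf7, the last from a control mean of 1.19 CPM and with an interval from -1.87 to 0.65.

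The sensors of foreign RNA and DNA moved in both directions. Ddx58 (ENSMUSG00000040296, chr4:40203773-40239828, minus strand) had between 3.19 and 6.26 CPM in control (median 4.76) and between 1.88 and 2.48 CPM in *Neuid* KD (median 1.97). The groups did not overlap, and the *Neuid* KD libraries lay closer together than the control libraries. Ddx58 fell by 1.17 on the log2 scale, a 2.25-fold difference (SE 0.169, adjusted p = 0.000124 by edgeR's test). It fell within both background classes, by 1.35 on the log2 scale in the high-background libraries (adjusted p = 0.000143) and by 0.89 in the low-background libraries (adjusted p = 0.0189), and it was called under all 24 alternatives.

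Eif2ak2 (ENSMUSG00000024079, chr17:78852564-78882573, minus strand), whose product PKR halts translation on double-stranded RNA, was the only member called higher. Its control libraries lay between 5.06 and 7.65 CPM (median 6.19) and its *Neuid* KD libraries between 8.70 and 10.4 CPM (median 9.49). No *Neuid* KD library reached down to the highest control library. Eif2ak2 rose by 0.59 on the log2 scale (SE 0.0965, adjusted p = 0.000495 by edgeR's test). Its increase was 0.63 in the high-background and 0.59 in the low-background libraries (adjusted p = 0.00295 and 0.00806), and the call held under all 24 alternatives.

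The other sensors did not pass. Ifih1, which encodes the long double-stranded RNA sensor MDA5 and belongs to the same family as RIG-I, averaged 1.77 ± 0.893 CPM among controls and 0.841 ± 0.453 CPM after the knockdown (log2 fold change -1.08, adjusted p = 0.195). Dhx58, the gene of the family's regulator LGP2, differed by -0.71 on the log2 scale (adjusted p = 0.559), and Trim25, a ubiquitin ligase gene of the RIG-I pathway, by -0.93 (adjusted p = 0.130). Tlr3, the endosomal receptor for double-stranded RNA, averaged 2.76 ± 0.525 CPM among controls and 3.41 ± 0.593 CPM after the knockdown (0.30, adjusted p = 0.412). Adar, an RNA-editing enzyme gene with a constitutive and an interferon-driven promoter, had 112.0 ± 7.75 and 103.9 ± 9.12 CPM (-0.11, adjusted p = 0.437). Zbp1, a sensor of Z-form nucleic acid, had too few reads to be tested, with 0 to 31 reads per library.

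The antiviral effectors were mostly weakly expressed, and 13 of the 18 could be tested. All 13 log2 fold changes were negative, with a median of -0.64. Among all tested genes 55.6% were negative, and 74.9% of those with a control mean under 2 CPM. Of the 13, 1 gene was called lower, Ifit1, where 0.792% of all tested genes were. An unadjusted p under 0.05 was reached by 7 of the 13, a level without a share of all tested genes beside it. With DESeq2 and with limma-voom 2 of the 13 were called lower, and 0 were called higher by these tools or by edgeR, with 0 higher at an unadjusted p under 0.05. Ifit1 (ENSMUSG00000034459, chr19:34640871-34650009, plus strand) had between 13 and 25 reads in each control library, and 6, 0, 1, 0, 0 and 3 reads in *Neuid* KD replicates 1 to 6. In CPM this was between 0.601 and 1.16 in control (median 0.943) and between 0 and 0.505 in *Neuid* KD (median 0.0234). The groups did not overlap, and the highest *Neuid* KD value was that of the library with the fewest reads. The summed reads were 123 in control and 10 in *Neuid* KD, and the fitted log2 fold change was -3.14 (SE 0.892, adjusted p = 0.0351 by edgeR's test), a value that rests on these 10 reads. The log2 fold change lay between -4.49 (without *Neuid* KD replicate 1) and -2.82 when 1 library was left out, and it was -2.39 in the high-background and -5.27 in the low-background libraries. The call was lost in 13 of the 22 alternatives that gave Ifit1 an adjusted p, with values up to 0.102, and DESeq2 gave it none. Without *Neuid* KD replicate 1 the adjusted p was 0.00193, and it was above 0.05 when any other library was left out.

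The remaining effectors gave the following values. Oasl2, a member of the oligoadenylate synthetase family, had the most negative value after Ifit1, averaging 2.34 ± 1.21 CPM among controls and 0.855 ± 0.767 CPM after the knockdown (log2 fold change -1.49, adjusted p = 0.130). Xaf1, a pro-apoptotic interferon-stimulated gene, followed with 1.20 ± 0.548 and 0.468 ± 0.263 CPM (-1.38, adjusted p = 0.105). The log2 fold changes of Ifi35, Mx1, Mx2, Rsad2, Ifi44, Ifi27, Rtp4 and Oas3 lay between -1.02 and -0.48, and their adjusted p between 0.129 and 0.874. The dynamin-like Mx1 and Mx2 and the viperin gene Rsad2 are among the best known interferon targets, and all 3 had control means under 2 CPM. The better expressed effectors had values nearer 0. Samhd1, which encodes a hydrolase of deoxynucleotides, had 16.9 ± 1.13 and 15.5 ± 1.45 CPM (-0.12, interval -0.27 to 0.02), and Ifit2 had 5.94 ± 0.543 and 4.97 ± 0.769 CPM (-0.26, interval -0.51 to -0.02, adjusted p = 0.215). Ifit3, Ifit3b, Oas1a, Oas2 and Bst2 were not tested. Of these, Bst2, which encodes the virus-retaining membrane protein tetherin, had between 0.139 and 0.726 CPM in control and between 0 and 0.209 CPM in *Neuid* KD, and the groups overlapped.

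The group of ISG15 conjugation and ADP-ribosylation had the most negative median of the groups with more than 1 member (-1.36). In it 2 of 5 genes were called lower, where 0.792% of all tested genes were. All 5 had an unadjusted p under 0.05, a level without a share of all tested genes beside it. Parp9 (ENSMUSG00000022906, chr16:35938470-35972605, plus strand) had between 2.26 and 5.78 CPM in control (median 2.82) and between 0.842 and 2.11 CPM in *Neuid* KD (median 1.09). The groups did not overlap, by a narrow margin. Parp9 fell by 1.36 on the log2 scale (2.56-fold, SE 0.296, adjusted p = 0.00606 by edgeR's test). Its partner Dtx3l (ENSMUSG00000049502, chr16:35926511-35939151, minus strand), which encodes a ubiquitin ligase, had between 4.50 and 7.05 CPM in control (median 6.67) and between 1.36 and 4.96 CPM in *Neuid* KD (median 2.52). *Neuid* KD replicate 5 lay within the range of the control libraries. Dtx3l fell by 1.13 on the log2 scale (2.19-fold, SE 0.240, adjusted p = 0.00488 by edgeR's test).

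Both calls held within each background class. Parp9 fell by 1.10 on the log2 scale in the high-background libraries (adjusted p = 0.0447) and by 1.56 in the low-background libraries (adjusted p = 0.00111). Dtx3l had -0.86 and -1.28 (adjusted p = 0.00275 and 0.000584), and no library of one group overlapped the other within either class. Parp9 and Dtx3l share 458 bases of exon on opposite strands, 9.40% and 8.00% of their exon bases, and the sources used here do not state whether reads were counted by strand, so their values are not fully separate.

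The other genes of the group did not pass. Isg15, the ubiquitin-like modifier itself, had between 0.534 and 1.04 CPM in control (median 0.784) and between 0 and 0.505 CPM in *Neuid* KD (median 0.114). The groups did not overlap. A log2 fold change of -2.12 (interval -3.62 to -0.62) had an adjusted p of 0.0817, from 107 reads in control and 20 in *Neuid* KD. Usp18, which encodes the enzyme that removes ISG15 and restrains the type I receptor, had 2.04 ± 1.36 and 0.778 ± 0.665 CPM (-1.43, adjusted p = 0.227). Parp14 had 3.51 ± 2.19 and 1.46 ± 1.13 CPM (-1.31, adjusted p = 0.182).

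Of the 4 immunity-related GTPases, which act on the membranes of vacuoles that hold pathogens and are induced mainly by interferon gamma, none was called by edgeR, DESeq2 or limma-voom, and 1 (Igtp) had an unadjusted p under 0.05. Log2 fold changes were -1.49 for Igtp (0.954 ± 0.431 CPM among controls and 0.359 ± 0.452 CPM after the knockdown, adjusted p = 0.238), -1.32 for Irgm2 and -0.64 for Iigp1. Irgm1, the best expressed of them with 4.33 ± 1.57 CPM among controls and 4.43 ± 0.786 CPM after the knockdown, had 0.03 (interval -0.42 to 0.48). The chemokine gene Cxcl10, whose product attracts T cells, had between 0.801 and 2.58 CPM in control (median 1.24) and between 0.0776 and 2.36 CPM in *Neuid* KD (median 0.175). Only 1 *Neuid* KD library, replicate 1, was above 0.785 CPM. Cxcl10 had a log2 fold change of -1.28 with an adjusted p of 0.391, and limma-voom called it lower.

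Promoter sequences were examined because the ISRE is the element that the complex of STAT2 and IRF9 binds. RefSeq promoter windows of 250 bases before to 50 bases after an annotated start (GRCm38.p6) were matched for 38 members by symbol. The core GAAANNGAAA on either strand was in 17 of the 38 (44.7%), and in 3.99% of the 27025 genes with a window. The gamma-activated site TTCNNNGAA, a motif of the interferon gamma response, was in 13 of the 38 (34.2%), and in 9.55% of all genes with a window. The ISRE core was in the windows of all 3 immunity-related GTPases that had one, of 7 of 13 antiviral effectors, of 3 of 6 sensors and of 0 of 4 receptors. Of the called members with a window, Ddx58, Ifit1 and Eif2ak2 held the core and Dtx3l did not, so the core was present both in genes that fell and in the gene that rose. The stretches below show the core in capitals in Ddx58 (chr4:40239799-40240075, minus strand), Ifit1 (chr19:34640744-34640870, plus strand) and Eif2ak2 (chr17:78882544-78882822, minus strand). Those of Dtx3l (chr16:35939207-35939277, minus strand) and Jak1 (chr4:101265283-101265473, minus strand) hold no core. Dtx3l is the other called member with a window, and Jak1 the uncalled member with the highest CPM. Their full windows held no core either, but the printed stretches cover only -250 to -180 in Dtx3l and -250 to -60 in Jak1. These stretches alone cannot show its absence nearer the start. Parp9, also called, had no window. The windows of Ifit1 and Eif2ak2 were added after their values had been seen. Each is the part of the window mostly outside annotated transcripts, written 5′ to 3′ on the strand of its gene, and in Ddx58 and Ifit1 the core is on the opposite strand and so reads as its reverse complement. The core of Ddx58 begins 2 bases after the RefSeq start and that of Eif2ak2 18 bases after it, while the 2 cores of Ifit1 lie upstream, at -104 and -85.
Ddx58: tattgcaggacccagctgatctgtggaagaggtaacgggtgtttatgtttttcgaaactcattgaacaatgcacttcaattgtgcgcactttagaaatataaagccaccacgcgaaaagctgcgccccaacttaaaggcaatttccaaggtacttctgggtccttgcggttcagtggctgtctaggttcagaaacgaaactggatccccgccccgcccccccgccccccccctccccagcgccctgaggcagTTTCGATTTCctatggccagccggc
Ifit1: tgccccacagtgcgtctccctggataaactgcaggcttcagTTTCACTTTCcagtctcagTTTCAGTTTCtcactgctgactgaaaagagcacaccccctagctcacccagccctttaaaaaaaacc
Eif2ak2: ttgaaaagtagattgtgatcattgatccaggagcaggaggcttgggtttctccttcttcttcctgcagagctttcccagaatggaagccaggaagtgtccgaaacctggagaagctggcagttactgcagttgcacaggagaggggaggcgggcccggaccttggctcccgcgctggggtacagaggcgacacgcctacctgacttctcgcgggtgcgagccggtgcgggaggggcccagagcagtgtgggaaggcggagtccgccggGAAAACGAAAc
Dtx3l: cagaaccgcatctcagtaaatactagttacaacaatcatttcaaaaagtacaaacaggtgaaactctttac
Jak1: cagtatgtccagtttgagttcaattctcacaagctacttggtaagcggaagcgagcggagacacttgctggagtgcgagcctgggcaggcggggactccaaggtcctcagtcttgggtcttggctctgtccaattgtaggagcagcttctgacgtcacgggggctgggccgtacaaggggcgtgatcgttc

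The level of many members followed the background of the library. In 20 of the 43 tested members every high-background control library lay above every low-background control library, as in 24.6% of all tested genes, and among these 20 were Ifih1, Oasl2, Usp18, Parp14, Mx1, Mx2, Isg15, Cxcl10, Dtx3l and Ifit1. Parp14 had between 3.25 and 5.94 CPM in the 4 high-background control libraries and 0.734 and 1.11 CPM in the low-background ones. Usp18 had between 1.58 and 4.18 CPM in the former and at most 0.925 CPM in the latter. For such genes the spread within a group held the difference in background as well as any other difference, so the groups were also compared with the background in the fit and within each class of background.

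**Figure D3:**
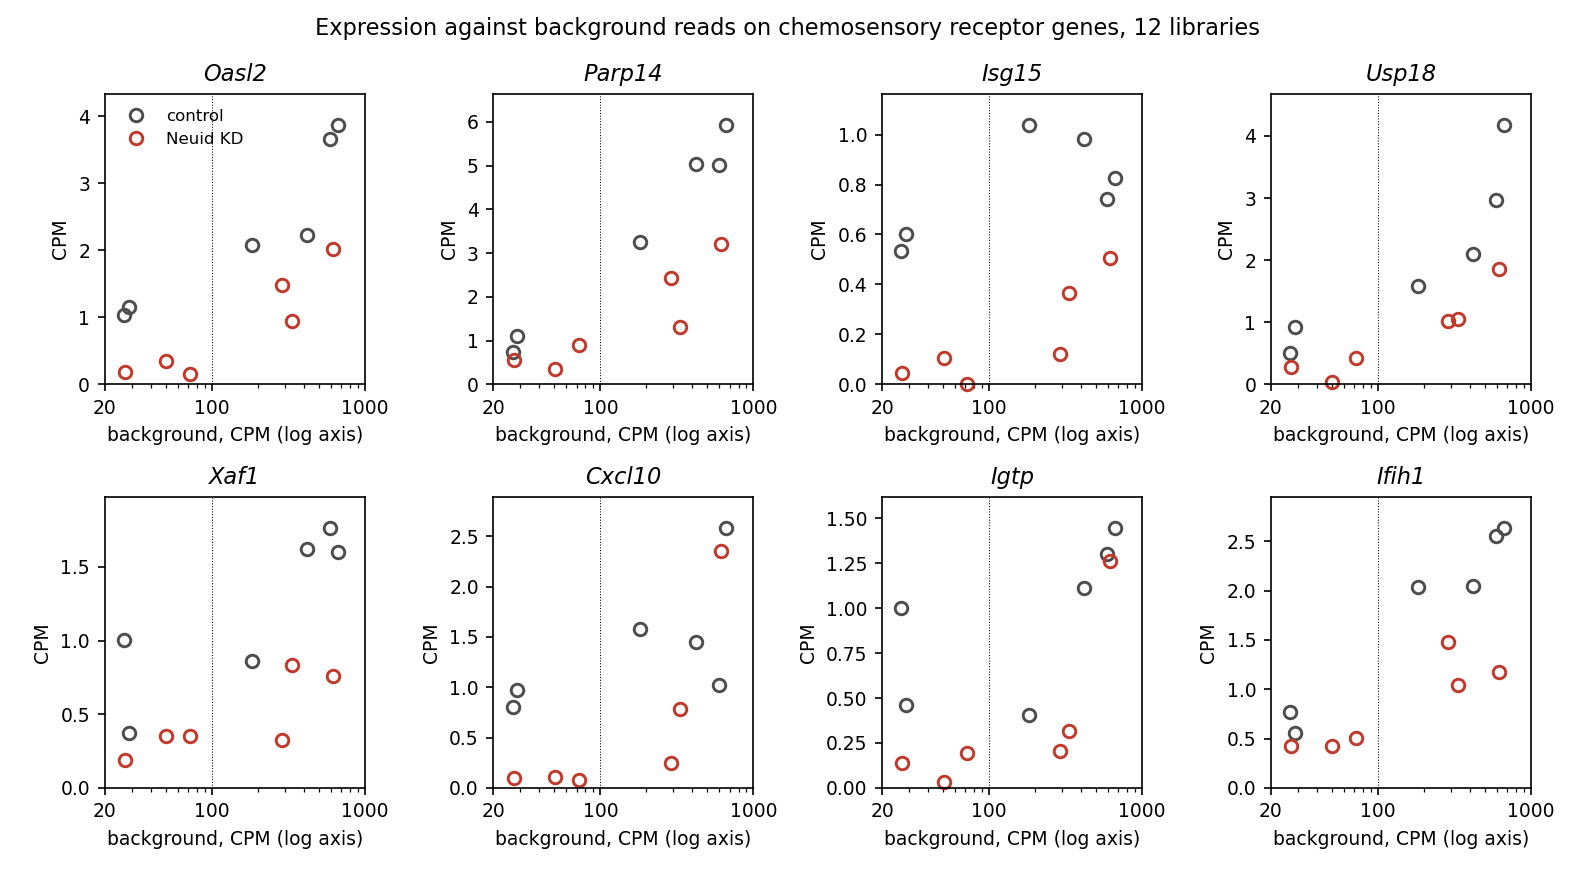
Expression in CPM of 8 members against the background of each library (summed CPM on chemosensory receptor genes, log axis, dotted line at 100 CPM), with control in grey and *Neuid* KD in red. The 8 are those with the lowest adjusted p among the members called with the background as a covariate but not without it. In all of them except Parp14 the 3 low-background *Neuid* KD libraries lie below both low-background control libraries, as in 13.6% of all tested genes.

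With the background level of each library as a covariate, 15 members were lower, where 1.53% of all tested genes were, and Eif2ak2 was higher. Beside Ddx58, Parp9, Dtx3l and Ifit1 the 15 were Isg15 (log2 fold change -2.19, adjusted p = 0.000492), Igtp (-1.64, adjusted p = 0.00641), Cxcl10 (-1.54, adjusted p = 0.00625), Oasl2 (-1.44, adjusted p = 0.000121), Xaf1 (-1.28), Usp18 (-1.27), Parp14 (-1.03), Ifih1 (-0.87), Mx2 (-0.82), Trim25 (-0.79) and Ifi27 (-0.62). With 1 RUVs factor in place of the background 14 members were lower, against 1.38% of all tested genes. Within the 5 libraries under 100 CPM of background, 8 members were lower, against 1.08% of all genes tested there. These were Ddx58, Parp9, Dtx3l, Ifit1, Isg15, Oasl2, Igtp and Cxcl10. In these libraries Cxcl10 had 24 and 21 reads in the control and 2, 2 and 3 reads in the *Neuid* KD libraries, and Oasl2 had 31 and 25 against 4, 4 and 10 reads. Within the 7 libraries with at least 100 CPM, 4 members were lower (Ddx58, Parp9, Dtx3l and Parp14), against 0.469% of all genes tested there. These fits differ from the main fit in model or in libraries, so their counts are not directly comparable with the main count. The members and the background measure were chosen with earlier results of these data known, so the shares beside the counts are not an independent comparison.

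Without a test, 17 of the 43 tested members had every low-background *Neuid* KD library (n = 3) below every low-background control library (n = 2), as did 13.6% of all tested genes. In the high-background class (3 against 4 libraries) this held for 13 members and 5.53% of all tested genes. The median log2 fold change of the members was -0.36 within the low-background libraries (38 members), -0.49 within the high-background libraries (43 members) and -0.50 with the covariate. *Neuid* KD replicate 1, with the fewest reads and the highest background of its group, bore on the count of calls. Without it 9 members were lower, where 1.36% of all tested genes were, the added ones being Isg15, Oasl2, Igtp, Cxcl10 and Irf1. Without it and control replicate 1, the library with the highest background, 7 members were lower, against 1.07% of all tested genes.

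**Figure D4:**
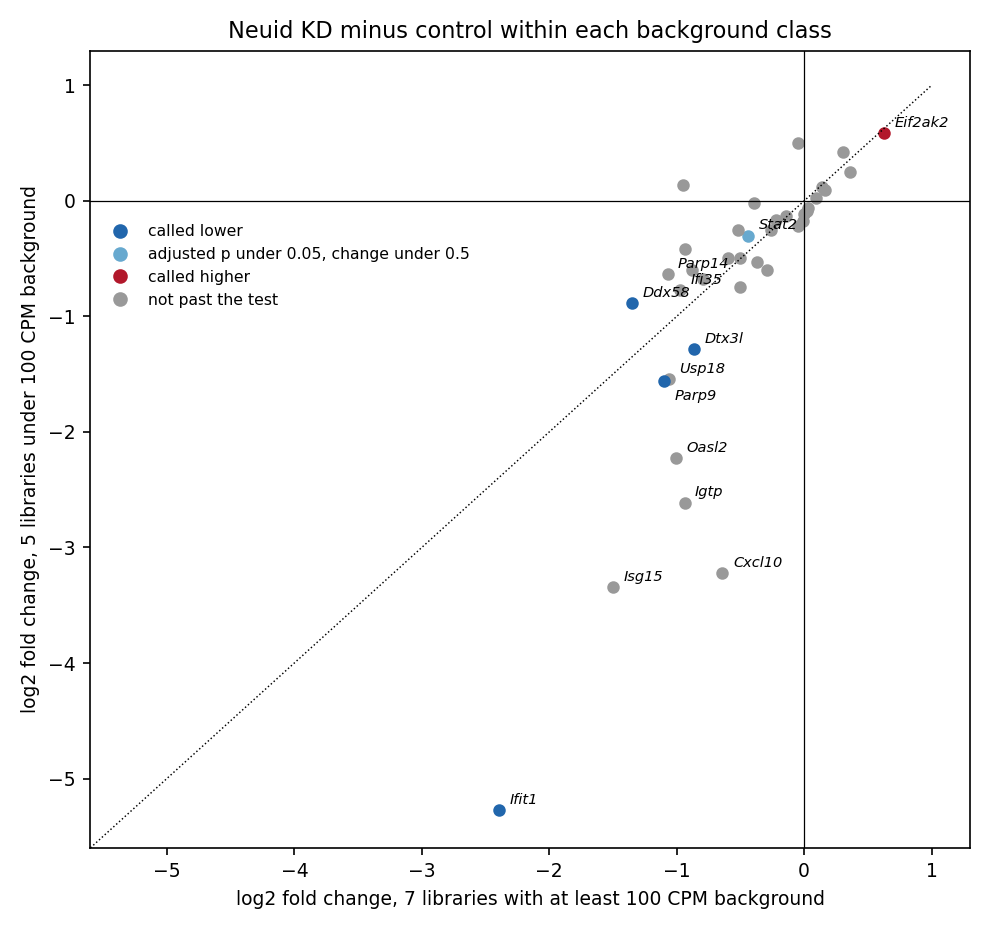
Log2 fold change within the 5 libraries under 100 CPM of background (vertical axis) against that within the 7 libraries with at least 100 CPM (horizontal axis), for the 38 members fitted in both, coloured by their call in all 12 libraries, with a dotted line of equality. Ddx58, Parp9, Dtx3l and Stat2 are negative and Eif2ak2 is positive in both classes, and the value of Ifit1 on the vertical axis rests on 1 read in the 3 *Neuid* KD libraries.

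The pathway holds many more genes than the 49 members. Of 80 further interferon genes listed for this comparison, 39 had enough reads to be tested. By edgeR 2 were called lower and 0 higher, against 0.792% and 2.44% of all tested genes. At an unadjusted p under 0.05, again without a share of all tested genes, 7 were lower and 2 higher. DESeq2 called 4 lower and 0 higher, and limma-voom 2 and 0, against the shares of all tested genes given above for these tools. Their median log2 fold change was -0.42, and 34 of the 39 values were negative. Among all tested genes 55.6% were negative (median -0.03), and 74.9% of those with a control mean under 2 CPM (median -0.27). Lgals3bp, which encodes a secreted glycoprotein induced by interferon, had between 2.94 and 5.78 CPM in control (median 4.03) and between 1.26 and 2.39 CPM in *Neuid* KD (median 1.94). The groups did not overlap, and Lgals3bp fell by 1.21 on the log2 scale (adjusted p = 0.000707), a call that held under all 24 alternatives. Ifitm3, which encodes a membrane protein that blocks virus entry, had between 0.982 and 2.41 CPM in control (median 1.85) and between 0.385 and 0.926 CPM in *Neuid* KD (median 0.774). It fell by 1.23 on the log2 scale without overlap between the groups (adjusted p = 0.0317), and the call was lost in 13 of 24 alternatives. The interferon genes themselves were barely covered, with 29 reads on Ifnb1, 31 on Ifng and 3 on Ifna1 over all 12 libraries, and none could be tested.

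The cultures held RNA of other cell types, and some of it differed between the groups. Of the 12 astrocyte markers listed 11 were tested, and 9 were called higher in *Neuid* KD, where 2.44% of all tested genes were. The other 2 passed the adjusted p alone. The summed astrocyte markers rose from between 1688 and 2128 CPM in control to between 3080 and 3742 CPM. In bulk RNA, more cells of a type cannot be told apart from more RNA per cell, and the same holds for a decrease. Of the 8 markers of the oligodendrocyte lineage 7 were tested. Of these 1 was lower and 2 were higher, against 0.792% and 2.44% of all tested genes. The sum of the lineage markers was 109 to 127 CPM among controls and 256 to 301 CPM after the knockdown. Microglia, strong producers of interferon-stimulated transcripts, left little signal. Of their 15 markers 6 were tested and 0 were called by edgeR, DESeq2 or limma-voom, with 0 at an unadjusted p under 0.05, and the sum was 14.9 to 25.8 CPM among controls and 13.2 to 25.8 CPM after the knockdown. Their defining markers P2ry12, Tmem119, C1qa, C1qb and C1qc had group means between 0.0647 and 0.267 CPM. Of the 9 endothelial markers 6 were tested, and all 10 markers of fibroblasts and mural cells were, again with 0 called by the 3 tools and 0 at an unadjusted p under 0.05. Their log2 fold changes leaned negative too, in 6 of 6 microglial markers (median -0.31), 6 of 6 endothelial markers (-0.50) and 8 of 10 markers of fibroblasts and mural cells (-0.59). The endothelial sum was 7.03 to 31.9 CPM among controls and 7.49 to 28.0 CPM after the knockdown, and that of fibroblasts and mural cells was 40.3 to 73.6 and 37.8 to 62.3 CPM. Of the 13 neuronal markers 0 were called by the 3 tools, with 1 lower and 3 higher at an unadjusted p under 0.05. By edgeR's adjusted p alone Camk2a (log2 fold change 0.38, adjusted p = 0.000216) and Nefm (0.21, adjusted p = 0.0242), named after their values were seen, were higher without overlap. Among all tested genes 6.31% were higher by that adjusted p, and 4.13% lay above without overlap. The part of these cell types in the values of the members was not tested.

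Some members cannot be read apart from related genes. Of all 50-base stretches of their annotated transcripts, 57.6% of those of Oas1a, 51.2% of those of Ifit3 and 45.0% of those of Ifit3b also occur in another gene, mainly Oas1g, Ifit3b and Ifit3. These 3 were among the genes with too few reads. The shares were 7.14% for Ifit1, mainly with Ifit1bl2, 2.88% for Eif2ak2 and 0.393% for Ddx58. In 20 of the 49 members exons overlap those of another annotated gene, and in Adar 16.8% of the exon bases are shared with Chrnb2 on the opposite strand.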

How the data were processed

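Total RNA of 12 hippocampal culture libraries was prepared with a SMARTer Stranded kit. The authors aligned the reads with STAR to mm10 (GRCm38) and deposited raw read counts per gene made with featureCounts, whose strand setting is not given in the sources used here. Symbols and positions came from the GENCODE annotation of GRCm38 (55230 of 55471 gene columns). Genes were filtered with filterByExpr, normalized by TMM and compared by the quasi-likelihood approach of edgeR 4.0.16 (R 4.3.3) with Benjamini-Hochberg adjustment. Intervals are 95% intervals of that fit. Alternatives were DESeq2 1.42.0, limma-voom 3.58.1, other scalings and filters, 1 RUVs factor (the study names RUVseq without settings), the background as covariate or class, a replicate block, leaving out each library and, chosen after seeing the data, leaving out control 1 and *Neuid* KD 1 together. On simulated data of 18160 genes for this comparison, 71.1% of genes changed by 1 on the log2 scale and 86.8% of those changed by 2 were recovered. The changed genes were drawn at random over all expression levels, so these shares do not give the recovery for weakly expressed members. All called members are named with values, others by role. Members, lists and the background measure were chosen with earlier results of these data known. The result of 1 planned gene is not reported here.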

Additional observations from a re-analysis of the deposited data

Results flagged for a closer look

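Among the 86 groups of 6 libraries formed by the 43 tested members, 6 held a library far from the others (a gap to the nearest library above Dixon's 95% critical value). Chance flags about 1 in 20 groups, or 4.3 of 86. All 6 were *Neuid* KD groups. In *Neuid* KD replicate 1, which had the fewest reads and the highest background of its group, 4 members stood above the other 5 libraries. These were Cxcl10 at 2.36 CPM against 0.0776 to 0.785 CPM, Igtp at 1.26 CPM against 0.0350 to 0.314 CPM, Ifi35 at 1.09 CPM against 0.466 to 0.574 CPM and Ifit1 at 0.505 CPM against 0 to 0.157 CPM. In *Neuid* KD replicate 6, Irf2 stood above the others at 17.9 CPM against 14.4 to 15.5 CPM, and Irf9 stood below them at 5.23 CPM against 6.82 to 7.46 CPM.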

How the results depend on the processing

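Ddx58, Parp9, Dtx3l and Eif2ak2 kept their calls under all 24 alternatives. The number of members called lower was 4, and it was 14 with 1 RUVs factor, 15 with the background covariate, 8 in the low-background libraries and 7 without control 1 and *Neuid* KD 1, where 1.38%, 1.53%, 1.08% and 1.07% of all tested genes were lower. It was 3 to 9 with 1 library left out, with 9 without *Neuid* KD replicate 1, and 5 without a fold-change threshold. Members called higher numbered 1 in each of these fits. As stated above, counts from fits with the covariate, the RUVs factor or a background class are not directly comparable with the main count. Of the other interferon genes 2 were called lower, and 4 were with DESeq2 size factors, upper-quartile scaling, a mean of at least 1 CPM or DESeq2, 5 with the RUVs factor or the covariate, and 1 without a filter and in the high-background libraries, where 1 (Mavs, named after its value was seen) was called higher. With 1 library left out, 1 to 4 were lower and 0 higher. Over all these fits 0.233% (no filter) to 1.53% (covariate) of all tested genes were lower by the call rule, and 2.42% were without a fold-change threshold.

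Signs turned in 6 members that were not called. Ifnar2 had a log2 fold change of -0.0117 with DESeq2 size factors, -0.053 with upper-quartile scaling, -0.0167 with a mean of at least 1 CPM, -0.0123 with DESeq2, -0.0109 with RUVs, -0.00693 with the covariate, -0.090 in low-background libraries and -0.0269 without control 1 and *Neuid* KD 1. Jak2 had -0.00509, -0.0457, -0.00940, -0.00479 and -0.00292 under the first 5 of these, and -0.0617 and -0.0171 under the last 2. Irgm1 had -0.0373 with upper-quartile scaling and -0.0509 in high-background libraries, Oas3 0.0128 with RUVs and Mx1 0.135 in low-background libraries. With 1 library left out, Ifnar2 lay between -0.0593 and 0.0535, Ifngr2 between -0.0551 and 0.00591, Jak2 between -0.0335 and 0.0396, Oas3 between -1.56 and 0.0338 and Irgm1 between -0.0908 and 0.166. The causes were not tested.

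With the replicate number as a block, 6 members were lower, Cxcl10 and Oasl2 being added, where 0.853% of all tested genes were, and Jak1, not called, had an adjusted p of 0.0270. The labels do not say what a number marks. For each library the deviation of its log2 CPM from the mean of its group was taken over all tested genes. Between same-numbered libraries these deviations correlated at 0.72, -0.39, 0.73, -0.62, -0.42 and -0.15 for replicates 1 to 6. Only those of control replicates 1 and 3 correlated best with the *Neuid* KD library of their own number.

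Weak members had wide errors. The SE of the log2 fold change was 0.35 to 0.954 for the 18 with a control mean under 2 CPM and 0.0518 to 0.639 for the other 25. With the background in the fit that of Isg15 went from 0.709 to 0.466, that of Cxcl10 from 0.725 to 0.410 and that of Oas3 from 0.954 to 0.388, and the part of depth was not tested.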
